A study of Mus musculus with 4 samples.

Results

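Growth factors of the EGF family and the receptors that bind them were followed in mouse embryonic fibroblasts (MEFs), cells grown out of mouse embryos, with and without added telomerase. The set held 9 genes. They were the ligands Hbegf, Ereg, Areg, Tgfa and Btc, the receptors Egfr, Erbb2 and Erbb3, and the receptor inhibitor Errfi1. A probe set, the group of probes on the array that reads a transcript, was taken when the platform annotation gave it exactly 1 of these symbols, whatever its signal. This gave 18 of the 22626 probe sets that are not array controls, for 8 of the 9 genes, and Areg was not analysed here because no probe set carried its symbol alone. The family was selected on earlier values of the comparison of mTert with control, among them lower Hbegf, Ereg and Erbb3 signals, so their differences in that comparison are a description and carry no test.

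EGF family ligands are made as membrane-anchored precursors, and metalloproteases cut them to free the soluble factor. The freed ligand binds an ERBB receptor on the same or a neighbouring cell. Egfr binds all the ligands of the set, Erbb2 has no known ligand of its own and acts as a partner in receptor pairs, and Erbb3 binds neuregulins and has little kinase activity. The receptor pairs signal through Ras and the MAP kinases, which drive fibroblasts to divide, and several ligands and the inhibitor Errfi1 are themselves transcribed when that pathway is active.

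Each of 4 RNA samples was read on its own Affymetrix MOE430A array. All 4 samples were MEFs that had received the retroviral vector pBabePuro, which was empty in the 2 controls and carried mTert, the catalytic subunit of mouse telomerase, in the 2 mTert samples. Strain, passage, selection and the origin of the samples of 1 group are not stated in the labels, so whether they were separate cultures is unknown. P-values therefore take in only the scatter among these 4 samples, some or all of which may be technical. Tert itself was called absent on both controls, at 128 and 84.7, and present on both mTert arrays, at 1165 and 845.

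Signals are in scaled arbitrary units, and those of different probe sets cannot be set against each other. Between 11681 and 12298 probe sets per array were called present. Less labelled cRNA was recorded for control 1, 5 µg, than for the rest, which had 15 µg each. All 11 fibroblast markers examined, Col1a1, Vim and Thy1 among them, were tested and present on at least 2 arrays. Their summed signal was 95654 and 92471 in control and 89865 and 88202 in mTert. Between mTert and control 9 of them were lower and 2 higher, with log2 differences from -0.23 to 0.07 and a median of -0.05. Macrophage markers split the arrays by number and not by group: their summed signal over 13 genes was 3147 and 3480 on control 1 and mTert 1, and 14305 and 14799 on control 2 and mTert 2. Epithelial markers were mostly near background, with 9 of 12 genes absent on all arrays, including Epcam, Krt5 and Krt8. Cdh1 and Trp63 were present on control 2 alone. Krt14 was present on control 2 and mTert 1, at 113 and 125 in control and 125 and 119 in mTert. Of 4 Schwann cell or neural crest genes with a probe set 3 were absent on all arrays, Sox10 and Mbp among them, and S100b was present on control 1 and mTert 1. Of 7 endothelial genes 5 were absent on all arrays, Pecam1 and Cdh5 among them, while Tek was present on all 4, at 74.4 and 181 in control and 131 and 198 in mTert, and Kdr on control 1 and mTert 1.

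The MEF cultures gave signal for most of the family, and which of their cells made each transcript was not tested. Each array table pairs a signal with a detection p-value and a call, and in these files the highest detection p called present was 0.0461 and the lowest called absent was 0.0676. Of the 18 probe sets, 11 were present on all 4 arrays, against 48.4% of all probe sets, 3 were present on 2 arrays, 1 on 1 array and 3 on none. Hbegf, Ereg, Tgfa, Btc, Egfr, Erbb2 and Errfi1 each had at least 1 probe set present on all 4 arrays. Erbb3 had none.

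Among Egfr, Erbb2 and Erbb3, the last was the receptor with no probe set detected throughout. Its probe set 1434606_at was called present on control 2 and mTert 2, with a detection p of 0.0376 on each, and absent on control 1 and mTert 1, at 0.0952 and 0.0806. The other Erbb3 probe set, 1452482_at, had signals between 9.60 and 11.4 and detection p-values between 0.829 and 0.919, so it was absent throughout. Detection of Erbb3 therefore rests on a single probe set at the edge of the present range, and its present calls fell on the 2 arrays with the high macrophage signal. Its signal did not follow the same split, as it was lowest on mTert 2, at 86.6. The log2 difference between arrays numbered 2 and 1 was 0.03. The part of macrophages in the present calls was not tested.

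Probe sets of the same gene differed in detection for Egfr, Tgfa and Btc as well. The 3 brightest Egfr probe sets had detection p-values from 0.000244 to 0.00122, well inside the present range. The remaining pair, 1432647_at and 1454313_at, is annotated to another sequence record, and of these 1454313_at was absent on all 4 arrays and 1432647_at present on 2. Tgfa 1421943_at was present on all 4 arrays, with detection p-values from 0.00806 to 0.0303, while 1450421_at was present on 2 and marginal on 2, and 1421942_s_at was absent on all. Btc 1435541_at was present on all 4 arrays, whereas Btc 1421161_at was present on mTert 2 alone, at a signal of 39.4 that was below the 45.2 of control 1. The plot of detection p-values shows this split between well detected and borderline probe sets.

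**Figure D1:**
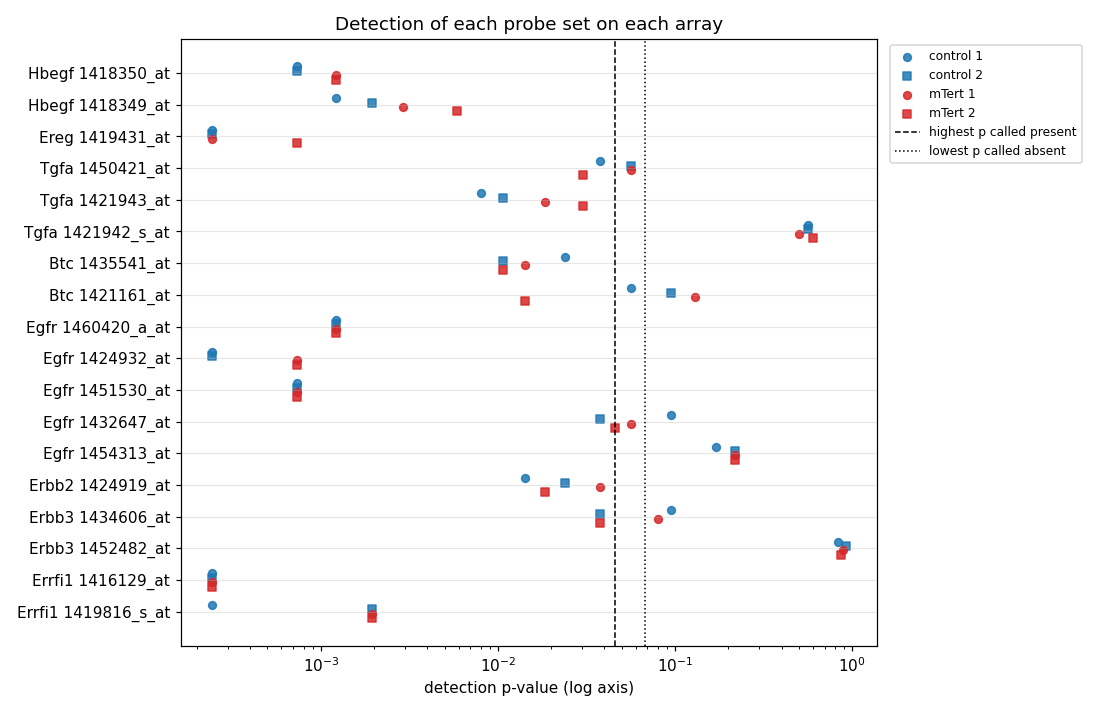
Detection p-value (log axis) of each of the 18 probe sets on each array, with controls in blue, mTert arrays in red, circles for number 1 and squares for number 2. Hbegf, Ereg, Errfi1 and the 3 brightest Egfr probe sets lie far left of the dashed line at 0.0461, the highest p called present, and Erbb3 1452482_at lies right of the dotted line at 0.0676, the lowest p called absent.

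Other members of the family, from a list made beside the 9 genes, were mostly below detection. Egf, the founding ligand, was present on all 4 arrays, at 117 and 120 in control and 151 and 113 in mTert, with groups that overlap. Epgn, Nrg3 and the receptor Erbb4 were absent on all 4 arrays, and Nrg4, a neuregulin, was called present on mTert 2 alone. Nrg1 and Nrg2 had no probe set with their symbol alone and were not analysed here.

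The comparison of mTert with control asked how the transcripts of MEFs differ when the telomerase subunit is added. Probe sets present on at least 2 of the 4 arrays, in whichever group, were tested, which kept 14 of the 18 and all 8 genes. Each of the 14 was present on at least 1 array of both groups. The signals of the ligand Hbegf and the inhibitor Errfi1 were lower on both mTert arrays than on both controls in every probe set, and Ereg followed. Tgfa and Btc had slightly higher means, and the signals of Erbb2 and the brightest Egfr probe sets were about level. Egfr 1451530_at and the borderline Erbb3 1434606_at were lower without overlap, at log2 differences of -0.21 and -0.44. The borderline Egfr 1432647_at was higher with overlapping groups, at 0.25.

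Hbegf, heparin-binding EGF-like growth factor, is a ligand of Egfr that fibroblasts release after stimulation. Its brighter probe set, 1418350_at, read 4196 and 3988 on control 1 and control 2, and 2794 and 1824 on mTert 1 and mTert 2. Both mTert signals lay below both controls, and the mTert arrays were farther apart than the controls. The means were 4092 ± 147 in control and 2309 ± 686 in mTert (SD, n = 2). The log2 difference was -0.86 with a standard error (SE) of 0.20 from limma, or 1.81-fold less signal. Log2 differences between groups, with the folds and percentages from them, were taken between means of log2 signals and not between the means given here. In RNA from whole cultures, fewer cells that make a transcript and less of it per cell cannot be told apart.

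The second Hbegf probe set, 1418349_at, is annotated to the same sequence record. It read 1509 and 1158 in control and 768 and 501 in mTert, again with no overlap. Its means were 1333 ± 248 and 635 ± 188 (SD, n = 2), and the log2 difference was -1.09 (SE 0.24), which leaves 46.9% of the control signal. In both probe sets mTert 2 was the lowest array.

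Set against the control array of the same number, the log2 difference of 1418350_at was -0.59 between mTert 1 and control 1 and -1.13 between mTert 2 and control 2. For 1418349_at these were -0.97 and -1.21. With groups that do not overlap, the sign of these values is fixed, and only their size adds to the description. Against control 2 alone, without the 5 µg array, the differences were -0.82 for 1418350_at and -0.90 for 1418349_at.

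Ereg, epiregulin, is a ligand of Egfr and Erbb4 that is little expressed in most adult tissues. Its 1 probe set read 480 and 416 in control and 275 and 400 in mTert. The groups did not overlap, but mTert 2 lay close under control 2 and only mTert 1 stood apart. The log2 difference of -0.43 (SE 0.22) was -0.80 between the arrays numbered 1 and -0.06 between those numbered 2, and it was -0.16 without mTert 1.

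Tgfa, transforming growth factor alpha, is an Egfr ligand long known from transformed fibroblasts. Tgfa 1421943_at read 156 and 195 in control and 215 and 195 in mTert, and Tgfa 1450421_at 424 and 359 in control and 501 and 403 in mTert. The groups overlapped in both, with log2 differences of 0.23 (SE 0.21) and 0.20 (SE 0.18). Each difference was close to its SE, and with 1 array left out they ran from 0.07 to 0.39 for 1421943_at and from 0.05 to 0.36 for 1450421_at.

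Btc, betacellulin, binds Egfr and Erbb4. Its detected probe set 1435541_at read 237 and 252 in control and 279 and 283 in mTert, so the groups did not overlap, and the log2 difference was 0.20 (SE 0.17). On the mouse genome Epgn, Ereg, Areg and Btc follow one another on chromosome 5 with no other protein-coding gene between them in the RefSeq annotation. Ereg and Btc, the members of that cluster with a tested probe set, had differences of opposite sign, and Epgn was not detected.

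**Figure D2:**
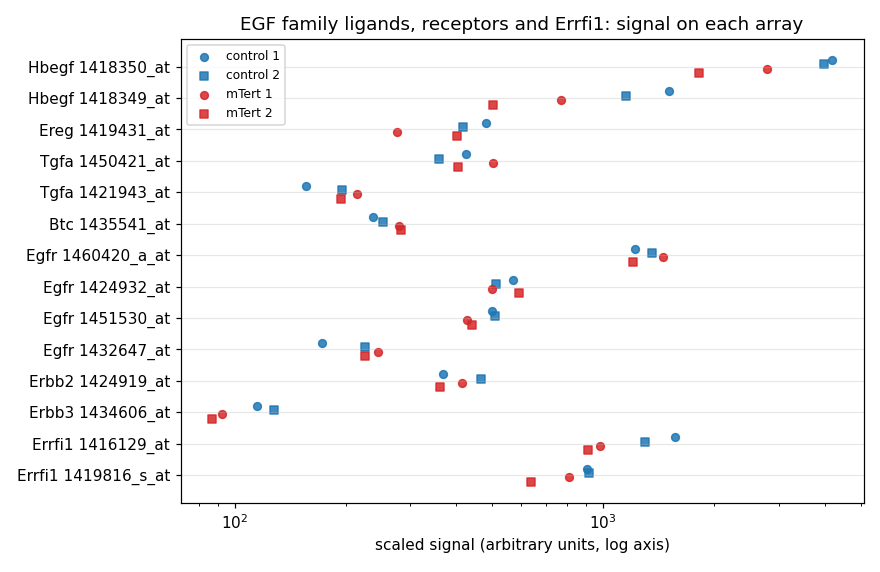
Scaled signal (log axis) of the 14 tested probe sets on each array, with controls in blue, mTert arrays in red, circles for number 1 and squares for number 2. Both Hbegf and both Errfi1 probe sets have their mTert points left of their control points, while those of Egfr 1460420_a_at, Egfr 1424932_at and Erbb2 are intermixed.

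Egfr, the receptor of these ligands, gave differences of both signs. Its brightest probe set, 1460420_a_at, read 1223 and 1359 in control and 1456 and 1202 in mTert, with a log2 difference of 0.04 (SE 0.14). Probe set 1424932_at read 569 and 514 in control and 501 and 591 in mTert, with a log2 difference of 0.01 (SE 0.16). In both the arrays of the groups were intermixed.

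Egfr 1451530_at is annotated to the same record as 1424932_at but had groups that did not overlap. It read 498 and 508 in control and 427 and 441 in mTert, with a log2 difference of -0.21 (SE 0.14). The borderline probe set 1432647_at had a log2 difference of 0.25 (SE 0.21), with signals from 172 to 245 and overlapping groups. Across the 4 tested Egfr probe sets the differences therefore ran from -0.21 to 0.25, with no common direction.

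Erbb2, the receptor without a ligand of its own, read 367 and 466 in control and 414 and 361 in mTert, with a log2 difference of -0.10 (SE 0.18) with overlapping groups. The sign was opposite within the 2 numbers, 0.18 between arrays numbered 1 and -0.37 between those numbered 2. Erbb3 1434606_at read 115 and 128 in control and 92.3 and 86.6 in mTert, without overlap, with a log2 difference of -0.44 (SE 0.24). As its calls were absent on 1 array of each group, these signals are close to background.

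Errfi1, also called Mig-6, binds the kinase domain of active Egfr and shuts it off, and is induced by the pathway that it restrains. Probe set 1416129_at read 1571 and 1300 in control and 984 and 911 in mTert. All mTert values lay below the controls, and the means were 1435 ± 192 and 947 ± 51.2 (SD, n = 2). The log2 difference was -0.59 (SE 0.14), or 1.51-fold less signal.

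Errfi1 1419816_s_at, whose suffix marks probes that may match more than 1 transcript, read 905 and 917 in control and 810 and 637 in mTert. The groups again did not overlap, and the log2 difference was -0.34 (SE 0.16). It was -0.17 without mTert 2 and -0.52 without mTert 1, so the size depends on which mTert array is used. Within number 1 the differences of the 2 probe sets were -0.68 for 1416129_at and -0.16 for 1419816_s_at, and within number 2 they were -0.51 and -0.53.

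Promoter windows of 250 bases before an annotated start were read from RefSeq for the 6 genes that have them, Areg, Tgfa, Btc, Egfr, Erbb2 and Errfi1. They are shown for Errfi1, the gene among these whose probe sets all stood lower in mTert, at both of its annotated starts, and for Egfr, whose brightest probe sets stood level. Coordinates are those of mouse build GRCm38.p6, all on the + strand and written 5′ to 3′. Capitals mark matches to TGACGTCA, the cyclic AMP response element, and to TATAAA, the TATA box.
Errfi1, first start, chr4:150853546-150853795: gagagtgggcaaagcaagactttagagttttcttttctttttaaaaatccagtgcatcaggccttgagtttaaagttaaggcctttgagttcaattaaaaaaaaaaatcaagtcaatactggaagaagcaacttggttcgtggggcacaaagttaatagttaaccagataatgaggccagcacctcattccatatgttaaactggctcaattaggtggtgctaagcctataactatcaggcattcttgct
Errfi1, start inside the gene, chr4:150854820-150855069: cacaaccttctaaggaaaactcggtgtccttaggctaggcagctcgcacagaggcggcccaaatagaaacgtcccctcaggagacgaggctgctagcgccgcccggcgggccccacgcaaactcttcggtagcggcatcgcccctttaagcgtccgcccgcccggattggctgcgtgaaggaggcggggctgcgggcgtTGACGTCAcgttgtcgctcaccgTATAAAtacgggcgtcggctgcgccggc
Egfr, chr11:16751953-16752202: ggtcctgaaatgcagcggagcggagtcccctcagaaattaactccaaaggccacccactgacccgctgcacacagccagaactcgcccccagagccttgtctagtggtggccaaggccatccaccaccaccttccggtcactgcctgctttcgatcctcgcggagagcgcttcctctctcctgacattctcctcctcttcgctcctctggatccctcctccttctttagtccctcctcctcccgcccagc

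Both strands were searched for TGACGTCA, for TATAAA, for the AP-1 site TGAGTCA, for the GC box GGGCGG and the CArG box bound by serum response factor. The inner Errfi1 window held 1 TGACGTCA at position -51, counted so that -1 is the last base before the start, 1 TATAAA at position -28 and 3 GGGCGG, of which 2 overlap. The first Errfi1 window held none of the 5 motifs, and its GC content was 38% against 64.8% in the inner window. Egfr held GGGCGG only. Of 32851 windows of this length in the table, 1.55% held TGACGTCA, 12.4% TATAAA, 4.46% TGAGTCA, 32.7% GGGCGG and 1.47% the CArG box. The Areg window, the one other among the 6 genes with TGACGTCA or TATAAA, held 1 of each, at positions -61 and -31. These are matches of letters and say nothing of binding in the cells.

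Across the set, 7 of the 14 tested probe sets had mTert signals entirely below the controls and 1 entirely above, where 12.1% and 13.4% of all 12396 tested probe sets did. The 7 were both Hbegf, both Errfi1, Ereg, Egfr 1451530_at and Erbb3 1434606_at, and the 1 was Btc 1435541_at. The median log2 difference of the 14 was -0.15, beside 0.01 for all tested probe sets. Since the genes were chosen with this contrast in view, and several probe sets read the same gene, these counts are no evidence about the family. By limma with Benjamini-Hochberg adjustment 0 of the 14 passed an adjusted p of 0.05, and 0% of all probe sets did. Tert, the added gene, did not pass in that fit either, at a log2 difference of 3.25 and a limma adjusted p of 0.188. A count of 0 therefore does not show that signals were equal. With a replicate block 2 of the 14 passed it, both of Hbegf, where 0.145% of all probe sets did. That block pairs the arrays by their number, and the labels do not state that arrays of the same number belong together. At an unadjusted p under 0.05 there were 3 of the 14, both Hbegf and Errfi1 1416129_at, beside 2.11% of all probe sets. Lower Hbegf in this contrast was among the grounds for choosing the family. These limma results, with or without the block, are therefore no test of Hbegf or of the family. With 2 arrays against 2, an exact permutation test of a single probe set cannot give a two-sided p below 0.333.

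**Figure D3:**
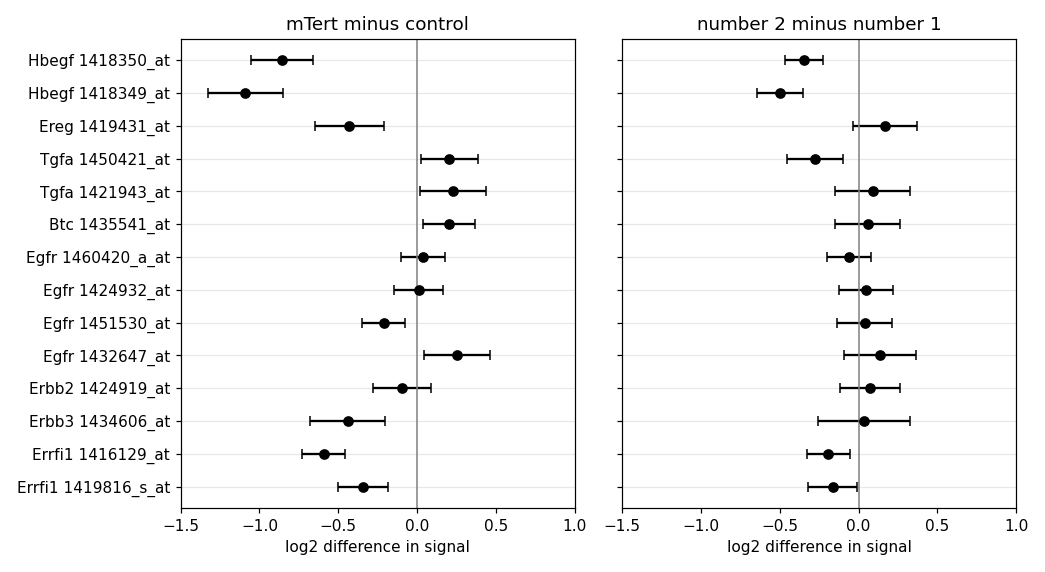
Log2 difference in signal of the 14 tested probe sets, mTert minus control on the left and number 2 minus number 1 on the right, with bars of 1 SE from limma (2 arrays on each side of both comparisons). The Hbegf differences of -0.86 and -1.09 are the farthest from 0 on the left, and they are also the farthest on the right, at -0.34 and -0.50.

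The number that the titles give the arrays splits them in a second way, which played no part in choosing the genes, and what it stands for is not stated. With the group as a term, limma called 347 of the 12396 probe sets between arrays numbered 2 and 1, or 2.8%. All 12 tested macrophage markers were among them, higher on the arrays numbered 2, with C1qa at 39.8 and 39.8 on number 1 against 1189 and 1395 on number 2. Of the 11 fibroblast markers 2 were among them, both lower on the arrays numbered 2. They were Thy1, at a log2 difference of -0.68, and Dcn, at -0.51, while the median of the 11 was -0.04. Of the 14 probe sets of the EGF family and Errfi1, 0 were called by limma, and 2 had an unadjusted p under 0.05, beside 10.2% of all probe sets. Those were the 2 Hbegf probe sets, at a log2 difference of -0.50 (SE 0.15, limma adjusted p = 0.0978) for 1418349_at and -0.34 (SE 0.12, limma adjusted p = 0.209) for 1418350_at. Hbegf was thus lower on the number 2 array of each group, by amounts that did not pass the test. On those arrays macrophage signals were higher and Thy1 and Dcn signals lower. The part of macrophages or fibroblasts in the Hbegf difference was not tested. The other 12 probe sets lay between -0.28 and 0.17 in this comparison, with limma adjusted p from 0.737 to 0.999.

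**Figure D4:**
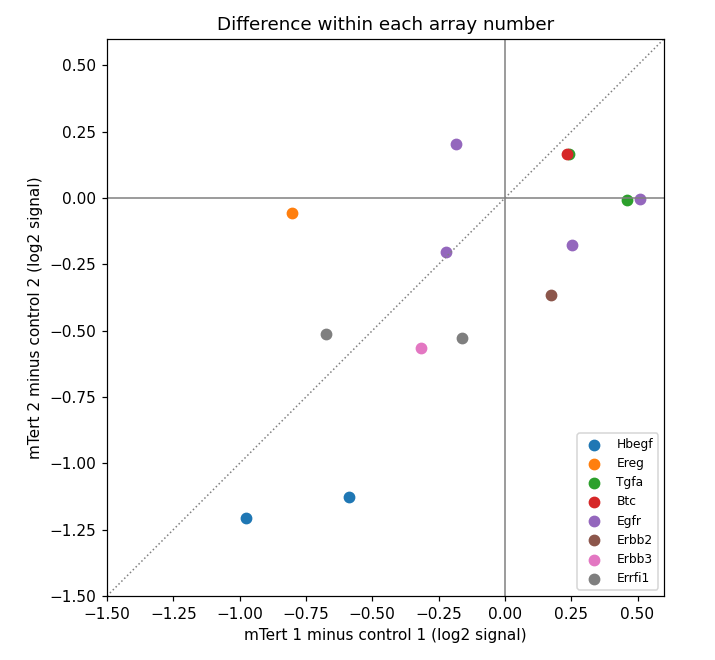
Log2 difference between mTert and control within arrays numbered 1 (x axis) and within arrays numbered 2 (y axis) for the 14 tested probe sets, coloured by gene, with a dotted line where both are equal. The 2 Hbegf points lie at lower left, at -0.97 with -1.21 and at -0.59 with -1.13, and Ereg lies near 0 on the y axis at -0.06.

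Within the 2 array numbers, 7 of the 14 probe sets were lower in mTert both times, 2 were higher both times and 5 had opposite signs. Those lower both times were the 7 whose groups did not overlap. Without overlap the sign within each number is fixed, so this count repeats the earlier one and adds no evidence. The sign of Btc, 1 of the 2 higher both times, was fixed in the same way. The plot of differences within each number shows Hbegf 1418349_at with the largest difference of the 14 in both numbers. On number 1, Ereg at -0.80 and Errfi1 1416129_at at -0.68 came next, ahead of Hbegf 1418350_at.

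The steps around the ligands and receptors were read from lists of the pathway, with 1 probe set per gene. Of 12 tested genes of ligand release, which include the metalloproteases Adam10 and Adam17, 0 passed limma's adjusted p of 0.05 in either direction, and 1 had an unadjusted p under 0.05, beside 0% and 2.11% of all probe sets. That gene was Cd9, a tetraspanin that associates with the membrane form of Hbegf, at 2177 and 2206 in control and 1854 and 1868 in mTert, with a log2 difference of -0.24 (SE 0.10) without overlap. Adam17, the main protease that frees Hbegf, Tgfa, Ereg and Areg, stood at -0.10 (SE 0.13) with overlapping groups. Adam10, which frees Btc, stood at 0.21 (SE 0.12), with both mTert signals above both controls.

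Adaptors and kinases below the receptor gave 20 tested genes, of which limma called 0 in either direction and 0 had an unadjusted p under 0.05, beside the same 0% and 2.11%, which at 20 genes makes 0 no result about the list. Their median log2 difference was 0.01, and the differences ran from -0.15 to 0.31, the latter for Pik3ca, a catalytic subunit of phosphatidylinositol 3-kinase. Grb2 and Shc1, the adaptors that link the receptor to Ras, stood at -0.10 (SE 0.17) and 0.01 (SE 0.13).

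Negative regulators and traffic proteins of the receptor gave 17 tested genes, again with 0 called by limma and 0 at an unadjusted p under 0.05, beside 0% and 2.11% of all probe sets. Their median was 0.02. Cbl, the ubiquitin ligase that marks active Egfr for destruction, read 371 and 367 in control and 303 and 292 in mTert, with a log2 difference of -0.31 (SE 0.15) without overlap. Hgs, which sorts the ubiquitinated receptor to lysosomes, stood at 0.27 (SE 0.14), also without overlap and in the other direction. In the 3 lists 8 of the 49 tested genes had mTert signals wholly below the controls and 5 wholly above, beside 12.1% and 13.4% of all probe sets.

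**Figure D5:**
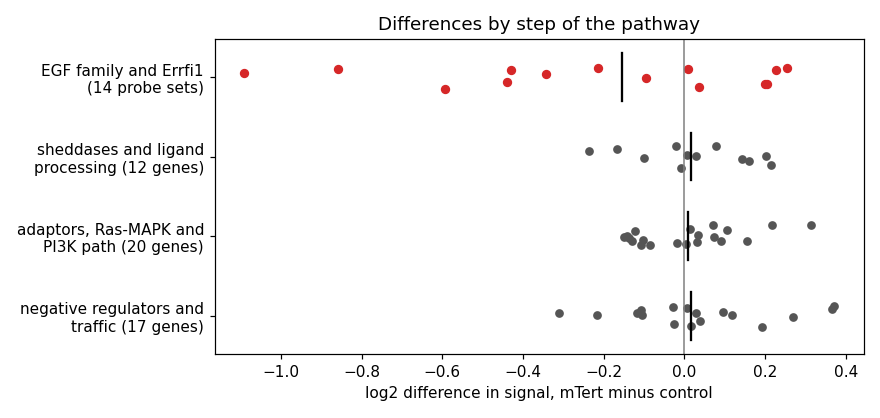
Log2 difference in signal between mTert and control for the 14 tested probe sets of the EGF family and Errfi1 (red) and for 1 probe set per gene of the 3 pathway lists (grey), with the median of each as a vertical line. The grey points lie between -0.31 and 0.37, and the lowest 3 red points lie at -0.59 or below. The red genes were chosen with this contrast in view and show every tested probe set, so the ranges are no test against each other.

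The transcripts whose pattern over the 4 arrays was most like that of Hbegf 1418350_at were sought among 11407 other tested probe sets with 1 symbol. Likeness was the root mean square difference of log2 signals, each centred on its own mean over the 4 arrays, for which the median over all candidates was 0.501. The 5 nearest were Klf9 at 0.0679, Mrpl33 at 0.0680, Epm2aip1 at 0.0947, Tmem263 at 0.0951 and Epha4 at 0.0999, against 0.160 for the second Hbegf probe set. Klf9 is a Krüppel-like transcription factor, and the Klf9 probe set read 162 and 174 in control and 109 and 73.7 in mTert. All 5 are dim probe sets, with signals of at most 222, and a pattern over 4 arrays can be matched by many transcripts.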

How the data were processed

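Samples were grouped and numbered by their titles, 2 control and 2 mTert arrays. Per the file headers, the authors deposited a signal intensity for each probe set, here on a linear scale, and a detection p-value and a call (present, marginal or absent). Which software made them is not stated in the labels or headers. The mean after leaving out 2% of probe sets at each end lay between 498.593 and 498.779, so the arrays had been brought to one level before deposit.

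Signals were scaled to a common trimmed mean and taken to log2, and the 1 zero was raised to the smallest signal called present on that array. The 64 control probe sets and those present on fewer than 2 of the 4 arrays were left out, which kept 12396. Symbols came from the platform annotation: of 22626 probe sets, 1 symbol was given for 20380, several for 691 and none for 1555.

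Differences were tested in R 4.3.3 with limma 3.58.1 (lmFit, eBayes with an intensity trend), without a replicate term for mTert against control and with the group as a term for number 2 against number 1. The group fit without a replicate term was also run on simulated data with planted changes and independent noise on each array. Those data had no split by array number, so the run says nothing of how the fit handles that split. P-values were adjusted over all probe sets tested. Every probe set of the 9 genes was named, whatever its values, and the 3 pathway lists used the brightest tested probe set of each gene. Hbegf's nearest patterns followed a fixed rule. The genes and lists were chosen with earlier results of these data known. Alternatives were the filter, scaling, offset, trend, replicate block and leaving out each array. The number of arrays limits the precision.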

Additional observations from a re-analysis of the deposited data

How the results depend on the processing

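Between mTert and control, limma called 0 probe sets without a filter on calls, on probe sets present on all 4 arrays, without further scaling, after quantile normalization, with 50 added before log2 and without an intensity trend, and with each array left out in turn. With a replicate block it called 18, 3 higher and 15 lower, including both Hbegf probe sets and no other of the 14. As the family was chosen with lower Hbegf in this contrast known, the Hbegf calls carry no test. The numbers in the titles are not stated to mark a shared culture or day. Deviations from the group means of arrays with the same number correlated at 0.373 across probe sets, which with 2 pairs is no proof of pairing. Log2 signals correlated at 0.984 and 0.9836 between arrays of the same number. Between the arrays of 1 group they correlated at 0.9715 in control and 0.9712 in mTert. The fit without a replicate block has no term for the number, so differences by number enter its SEs. Between arrays numbered 2 and 1 the 347 calls became 192 with no replicate block, that is without the group term, and 76 without an intensity trend, and 0 of the 14 probe sets was called in any of the 7 alternatives. The differences of Hbegf, Errfi1, Ereg, Erbb3, Btc and Tgfa kept their sign in every alternative in which they were tested. Erbb3 1434606_at and Tgfa 1450421_at were not among probe sets present on all 4 arrays. With 1 array left out, Hbegf 1418350_at lay between -1.16 and -0.55 and Hbegf 1418349_at between -1.40 and -0.78. Except for Tgfa, the groups of these genes did not overlap, so leaving out an array could not change the sign. The filter, the replicate block and the trend leave the difference itself unchanged. For the groups without overlap the kept sign therefore adds no evidence, and only the sizes add to the description. Egfr 1460420_a_at, Egfr 1424932_at and Erbb2 changed sign in 2 of the 4 fits with 1 array left out, and Egfr 1424932_at also after quantile normalization, at -0.01. Such fits leave the numbers unequal between the groups. Dim probe sets such as those of Erbb3 are limited by their closeness to background, and adding 50 before log2 moved Erbb3 1434606_at to -0.30.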
